A study of Mus musculus with 6 samples.

Results

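Early replicating fragile sites are stretches of the genome that copy early in S phase, are rich in active genes, and break when replication is slowed. They were described in B lymphocytes, and many of the genes named for them work in lymphocytes. Common fragile sites differ from them in lying in very long genes that replicate late. ATR is the kinase that guards stalled replication forks, and the study asked where DNA ends gather when it is inhibited.

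The 7 genes followed here, Pim1, Foxp1, Bach2, Ets1, Gadd45b, Ikzf1 and Swap70, were taken by name from early replicating fragile sites, and are 7 of 21887 protein-coding genes on 21 chromosomes. A peak was counted for a gene when its summit lay inside the gene body or within 10 kb of either end. The measurements came from BrITL, in which DNA ends in permeabilised cells are labelled with biotin-16-ddUTP, pulled down on streptavidin beads and sequenced. All samples were passage-immortalised mouse embryonic fibroblasts that are ATR+/- and express Bcl-xL, so the vehicle controls also carried 1 copy of Atr and the survival gene. The vehicle group (called DMSO below) had DMSO for 18 h, and the treated group had 1 µM ATR-45 inhibitor with 0.2 µM aphidicolin, an inhibitor of replicative DNA polymerases, for 18 h. Pull-downs were made from 2 samples in each group, with 1 input. The authors deposited 1 peak list per group, pooled over its samples, and every fold, p and q below is their caller's own value. No value below therefore has a replicate error, no comparison of the groups could be tested, and a gene with no summit in a list may still hold ends that were not called.

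The DMSO list held 6444 peaks and the treated list 491, and the lowest −log10 q was 18.5 and 3.38. The lowest pull-down coverage at a summit, recovered from the caller's values, was 35 fragments in both lists, over pull-down backgrounds of 2.88 and 5.14 fragments. Among defining markers of the cells, 7 of 12 fibroblast genes had a DMSO summit by the same rule, against 29.9% of all protein-coding genes. Vim and Fn1 were among them, while Col1a2, Col3a1, Pdgfrb, Thy1 and Twist1 had none. A DMSO summit lay at 0 of 9 B cell genes and 1 of 6 T cell genes (Lck). Peaks mark DNA ends, not transcripts, so these counts do not measure the genes' expression.

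The starts of 6 of the 7 genes are in the RefSeq promoter table (GRCm38.p6, the assembly of mm10). The 250 bases before 4 starts are printed below, 5′ to 3′ on the strand of the gene. Pim1 is shown because peaks of both lists met its window, the inner start of Foxp1 and the start of Gadd45b because DMSO peaks alone covered theirs, and Swap70 as a start that neither list met. Capitals mark matches on either strand to GGGCGG (the box of Sp factors), to CCAAT (bound by NF-Y), to TATAAA (the TATA box), to TGANTCA (the AP-1 site) or to CCGGAAG (an ETS site), and no 2 matches overlapped in these 4 windows.
Pim1, chr17:29490535-29490784, + strand: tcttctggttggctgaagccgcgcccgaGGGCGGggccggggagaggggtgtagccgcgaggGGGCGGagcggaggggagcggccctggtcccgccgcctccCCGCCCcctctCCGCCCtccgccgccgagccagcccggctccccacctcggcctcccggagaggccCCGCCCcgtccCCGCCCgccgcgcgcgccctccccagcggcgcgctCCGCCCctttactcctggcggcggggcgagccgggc
Foxp1 inner start, chr6:99028299-99028548, − strand: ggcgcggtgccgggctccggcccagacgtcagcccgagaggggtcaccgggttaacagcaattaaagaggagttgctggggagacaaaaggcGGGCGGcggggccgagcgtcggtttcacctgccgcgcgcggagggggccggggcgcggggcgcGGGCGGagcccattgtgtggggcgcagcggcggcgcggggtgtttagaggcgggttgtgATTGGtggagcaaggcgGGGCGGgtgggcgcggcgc
Gadd45b, chr10:80929841-80930090, + strand: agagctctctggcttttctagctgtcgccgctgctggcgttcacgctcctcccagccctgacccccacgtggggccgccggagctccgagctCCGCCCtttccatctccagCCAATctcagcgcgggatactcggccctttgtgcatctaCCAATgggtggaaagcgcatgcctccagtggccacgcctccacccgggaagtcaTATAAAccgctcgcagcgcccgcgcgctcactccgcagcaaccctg
Swap70, chr7:110221453-110221702, + strand: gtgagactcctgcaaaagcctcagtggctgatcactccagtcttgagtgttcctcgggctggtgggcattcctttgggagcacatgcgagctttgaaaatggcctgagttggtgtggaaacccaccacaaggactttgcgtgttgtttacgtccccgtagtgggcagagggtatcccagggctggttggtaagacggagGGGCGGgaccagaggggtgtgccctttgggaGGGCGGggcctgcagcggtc

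The Pim1 window held 7 matches to GGGCGG, a GC content of 82.4% and 36 CpG dinucleotides. The Foxp1 window held 3 such matches and 1 to CCAAT, with 74.0% GC and 34 CpG. The Gadd45b window held 1 match to GGGCGG, 2 to CCAAT and 1 to TATAAA, with 65.2% GC and 22 CpG. Swap70, with no peak, had 2 matches to GGGCGG, 59.6% GC and 9 CpG. The 4 printed windows are not all of those met: DMSO peaks also covered the window of the second Pim1 start (48.0% GC, 4 CpG, 0 matches to GGGCGG), below Swap70 in GC, and that of the upper Foxp1 start (60.8% GC, 11 CpG, 1 match), about level with it. Over the 21230 such windows of protein-coding genes the median was 55.6% GC and 10.0 CpG. GGGCGG was in 42.6% of them, CCAAT in 35.3%, TATAAA in 11.6%, CCGGAAG in 8.98% and TGANTCA in 6.14%.

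Among the listed windows of these genes, GC content did not separate those met by a peak from those not met. Ets1 had no window, and that of Bach2 (50.4% GC) was met by no peak, so GC content at the summits of both was not measured. The first listed start of Ikzf1 had 82.0% GC and 44 CpG, a GC content near that of Pim1 and more CpG, and no peak met it. Of the 167 windows with at least its GC content, 35.9% were met by a DMSO peak, against 22.3% of all windows. Windows met by a DMSO peak had a median GC content of 64.0%, and the others 52.8%, so labelled ends and GC content moved together over all promoters. The part of base composition in the values of single genes was not tested.

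Ends were called at 5 of the 7 genes in vehicle-treated cells and at 1 of the 7 in treated cells. The 5 genes were Pim1, Foxp1, Bach2, Ets1 and Gadd45b, with 8 DMSO summits in all. The treated summit lay at Pim1, within the DMSO peak there. Ikzf1 and Swap70 had 0 summits in both lists. Of all protein-coding genes, 29.9% had a DMSO summit by this rule, 1.78% had a treated summit, and 1.30% had both. Among the 7 genes the share was 71.4% for DMSO and 14.3% for treated summits, the latter resting on a single peak. The 7 genes were chosen with earlier results of these data known, so these shares are a description and not a blind comparison.

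**Figure D1:**
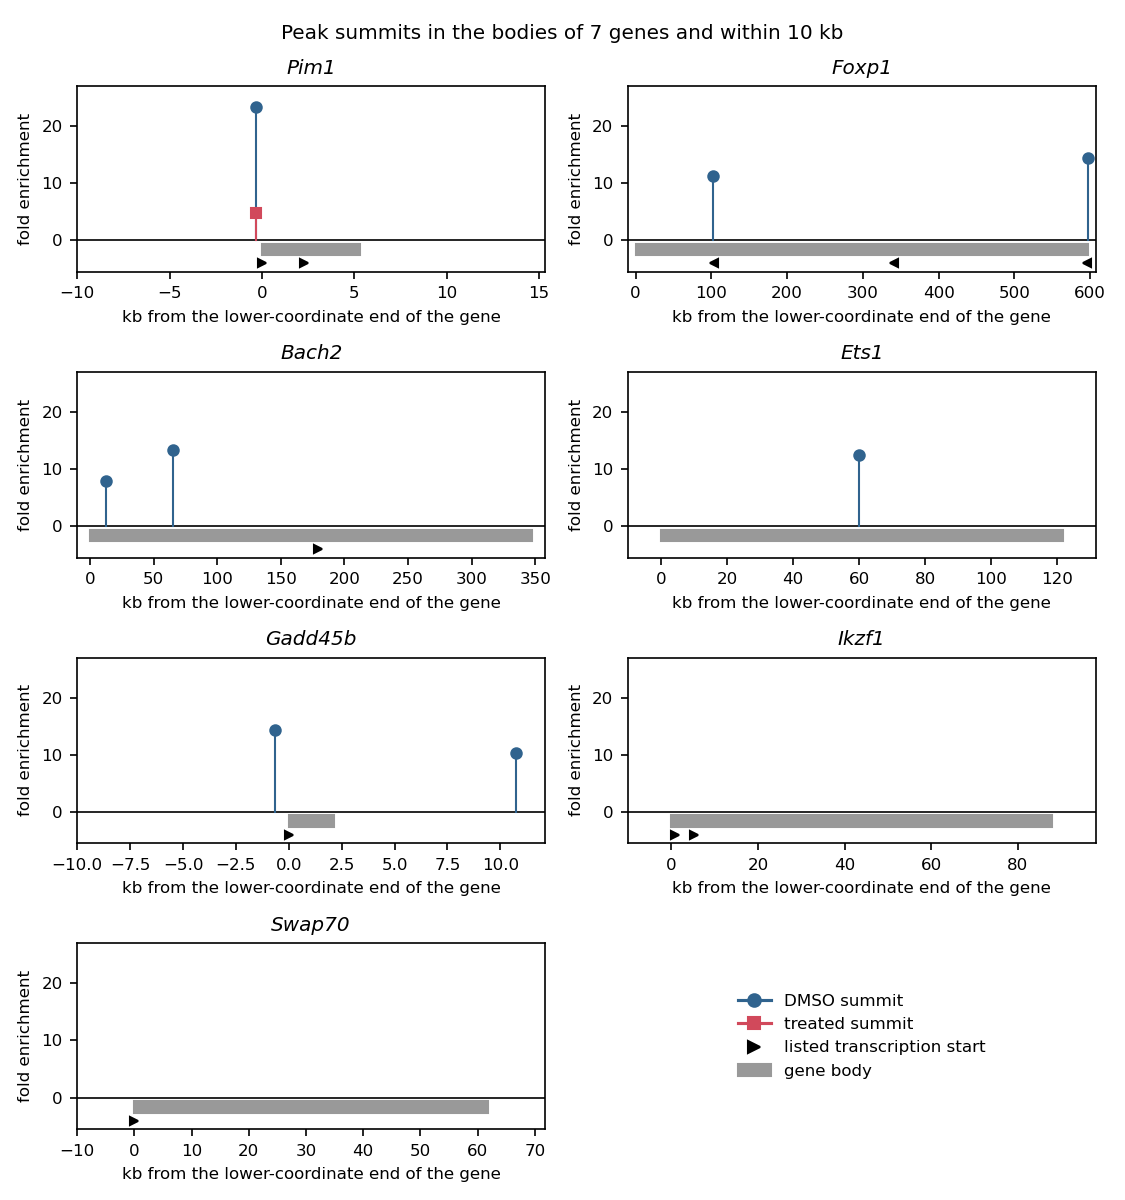
Summits in the 7 genes and 10 kb on each side, against distance in kb from the lower-coordinate end of the gene (x axis), with the authors' fold enrichment as height (y axis). Blue circles are DMSO summits, the red square is the treated summit, grey bars are gene bodies and arrowheads are listed transcription starts pointing in the direction of transcription (Ets1 has no listed start). The Pim1 and Gadd45b summits lie outside the bodies, those of Foxp1, Bach2 and Ets1 inside, and folds of the 2 lists are not on a common scale.

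Gene length did not order the genes. Both genes under 10 kb, Pim1 (5.33 kb) and Gadd45b (2.11 kb), had a DMSO summit, against 22.9% of all protein-coding genes of that length. All 3 genes over 100 kb, Foxp1 (597 kb), Bach2 (348 kb) and Ets1 (122 kb), had one, against 30.7%. Of the genes of 10 to 100 kb, Ikzf1 (88.0 kb) and Swap70 (61.8 kb), 0 of 2 had one, although 34.5% of genes in that class did. Treated summits were at 1.29%, 2.00% and 2.31% of all genes in these 3 classes, shortest first, and of the 7 genes only the short Pim1 had one. Inside the body alone, a DMSO summit lay in 3 of the 7 genes, all of them over 100 kb, against 13.2% of all protein-coding genes and 20.3% of those over 100 kb.

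**Figure D2:**
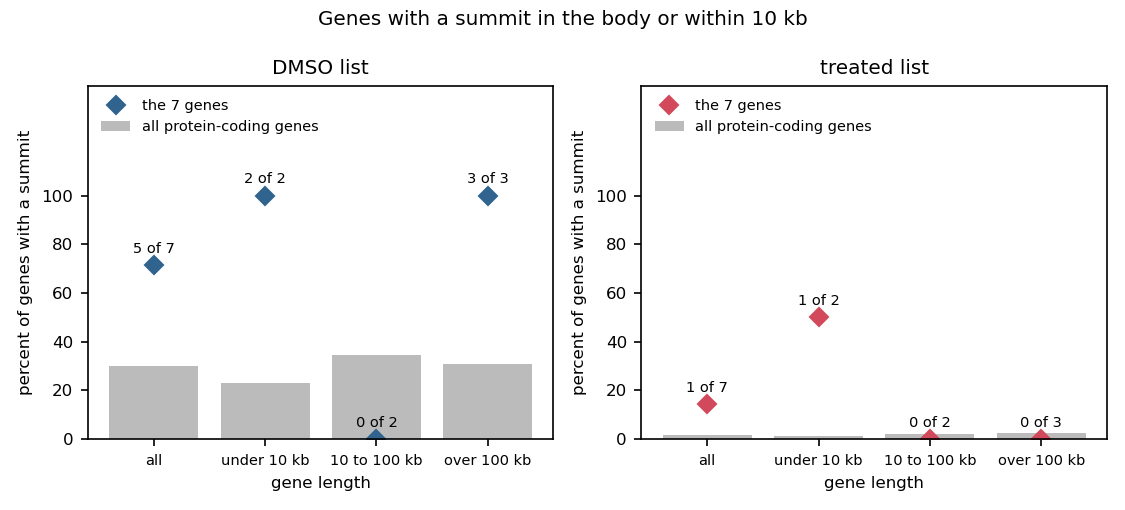
Percent of genes with a summit in the body or within 10 kb (y axis) by gene length (x axis), for the DMSO list (left) and the treated list (right). Grey bars are all protein-coding genes and diamonds the 7 genes, with their counts. In the DMSO list the diamonds stand at 5 of 7, 2 of 2, 0 of 2 and 3 of 3, over bars of 29.9%, 22.9%, 34.5% and 30.7%.

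Pim1 encodes a serine/threonine kinase induced by cytokine signalling and a proto-oncogene of lymphoid tumours. It lies on chromosome 17 from 29490785 to 29496111. The DMSO peak (29488366 to 29493744, 5379 bp wide) covered the window printed above, the first start and part of the body. Its summit lay 299 bp upstream of the first start. The fold enrichment there was 23.4, rank 50 of 6444, with a −log10 q of 80.7. The pull-down coverage recovered from the caller's values was 95 fragments, and the input background was 2.32. The pull-down count is before scaling to the input, so its ratio to the background is not the fold. The fold and the coverage were the highest at any of the 7 genes, and 99.2% of the DMSO list lay at or below this peak in fold.

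The treated peak at Pim1 (29490392 to 29490560) was 169 bp wide, with its summit 311 bp upstream of the same start and 12 bp from the DMSO summit. The 200 treated peaks that overlapped a DMSO peak had a median summit distance of 180 bp, and 16.0% of them were as close as at Pim1 or closer. The treated peak was a weak one in its list. Its fold was 4.87 and 27.7% of the treated list lay at or below that. Its −log10 q was 3.55, with 9 treated peaks lower, and its pull-down coverage was 35 fragments, the lowest of any listed peak in either list, at which 41 treated and 12 DMSO peaks stood. The input background was 2.36 fragments there.

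Of the 52 DMSO peaks with a fold at least that of Pim1, 61.5% overlapped a treated peak, against 2.90% of all DMSO peaks. The other 7 DMSO peaks of these genes had folds from 7.93 to 14.4 and overlapped 0 treated peaks. Among all 4602 DMSO peaks in that range of fold, 0.456% overlapped one. Pim1 thus stood in the range of fold where overlap was common, and the peaks of the other 4 genes where it was rare.

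The 3 long genes encode transcription factors. Foxp1 is a forkhead factor of B cell development, Bach2 a repressor that restrains plasma cell formation, and Ets1 the founding ETS factor, active in lymphocytes and in mesenchymal cells. All 5 of their DMSO summits lay inside the gene bodies, and the treated list had 0. With flanks of 10 kb, the body is most of the window counted for genes this long. That placement therefore follows largely from the rule.

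Foxp1 (chromosome 6, 98925342 to 99522746, − strand) held 2 DMSO summits, 494 kb apart, each at a listed start. The upper peak (99518703 to 99524562) spanned the upstream end of the gene, with its summit 809 bp inside that end and 944 bp upstream of the first listed start. It had a fold of 14.4 and 58 pull-down fragments. The lower peak (99026744 to 99029892) covered the inner start whose window is printed above, with its summit 213 bp downstream of it. It had a fold of 11.2 and 45 fragments. A further listed start between them was met by no peak, so DMSO peaks met 2 of 3 listed starts. The 103 kb of the body beyond the lower summit held none of either list.

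Bach2 (chromosome 4, 32238413 to 32586109, + strand) held 2 DMSO summits in the first part of its body, 12.4 and 65.3 kb from its upstream end. Neither was near the listed start, which lies 167 and 114 kb downstream of them. The first (peak 32249668 to 32252676) had a fold of 7.93 and 48 pull-down fragments, and the second (32302517 to 32305230) a fold of 13.4 and 54 fragments. The first had the lowest fold of the 8 DMSO peaks, with 10.1% of the list at or below it, but not the lowest coverage. Its input background was 4.0 fragments, while the other 7 DMSO peaks stood at the genome background of 2.32, as did 69.3% of the list.

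Ets1 (chromosome 9, 32636241 to 32757820) held 1 DMSO summit near the middle of its body, 59.8 kb from one end and 61.8 kb from the other. The peak (32693984 to 32697717) had a fold of 12.4 and 50 pull-down fragments. The nearest end of another protein-coding gene was that of Fli1, an ETS gene beside it, 153 kb away. Other genes were also far from the summits of Foxp1 (Eif4e3, 99.9 and 594 kb) and Bach2 (Map3k7, 227 and 280 kb), so no other protein-coding gene end lay near the summits of the long genes.

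Gadd45b is a short gene switched on by stress and cytokines, and its product acts on p38 and JNK signalling. It lies on chromosome 10 from 80930091 to 80932204 (+ strand). Its first DMSO peak (80927560 to 80931233) covered the printed window, with the summit 671 bp upstream of the start. It had a fold of 14.4 and 58 pull-down fragments, the same values as the upper Foxp1 peak. The second DMSO summit lay 8.63 kb beyond the far end, with a fold of 10.3 and 41 fragments, the lowest coverage of the 8. It was nearer to an end of Gng7, a G protein subunit gene, at 7.79 kb. It therefore belongs to Gadd45b only by the 10 kb rule, and is the summit of the set that lies nearest that limit.

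Just outside the limit, the nearest DMSO summits were at 29.0 kb from Bach2 and at 29.2 kb on each side of Gadd45b. The one by Bach2 (fold 11.7) lay 375 bp from an end of Casp8ap2. Those by Gadd45b lay 42 bp from an end of Timm13 (fold 11.7) and 12.7 kb from an end of Gng7 (fold 16.3). By Pim1 the next lay at 53.0 and 53.6 kb, with folds of 17.6 and 10.0. The treated list had 0 summits between 10 and 100 kb from any of the 7 genes.

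Ikzf1 encodes Ikaros, a zinc finger factor required for lymphocyte development, and Swap70 a signalling protein of activated B cells. Neither had a summit within 100 kb in either list, which in the DMSO list was true of 43.8% of protein-coding genes. For Ikzf1 (chromosome 11, 11684962 to 11772930) the nearest DMSO summit was 2979 kb from the body and the nearest treated summit 3397 kb. It had 0 DMSO summits within 1 Mb, as did 11.3% of protein-coding genes. For Swap70 (chromosome 7, 110221703 to 110283506) the nearest DMSO summit was just beyond that limit, at 100 kb, and the nearest treated summit 2924 kb, and 7 DMSO summits lay within 1 Mb.

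Peak names end in a number that rises along each chromosome with gaps, read here as a count of calls before some were left out of the list. Between the listed DMSO peaks on either side of Ikzf1, 7886 kb apart, lay 44 numbers, none listed, or 5.58 per Mb. For Swap70 it was 47 numbers in 962 kb, or 48.9 per Mb. The whole DMSO list had 25.2 numbers per Mb. For the 5 genes with a listed peak, rates ran from 13.8 per Mb at Ets1 and 26.0 at Foxp1 to 347 at Gadd45b. On that reading the stretch around Ikzf1 held fewer DMSO calls per Mb than the list as a whole, and that around Swap70 more. The spans of Ikzf1 and Swap70 are by construction gaps between listed peaks. The rate of the whole list also covers stretches with listed peaks, so the comparison is not an even one. Each rate covers the whole span between listed peaks, which was far longer for Ikzf1, and is not a rate at the gene itself.

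The 8 DMSO peaks had a median fold of 12.9, against 11.0 over the list, and 6 of them lay above the list's median. Median pull-down coverage was 52.0 fragments, against 49.0. Apart from Pim1, none of the peaks stood above 81.3% of the list in fold. The widths ran from 2714 to 5860 bp, with a median of 3548 bp against 2855 bp over the list. Those of the upper Foxp1 peak and of Pim1 were the greatest, with 96.5% and 95.2% of the list at or below them.

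**Figure D3:**
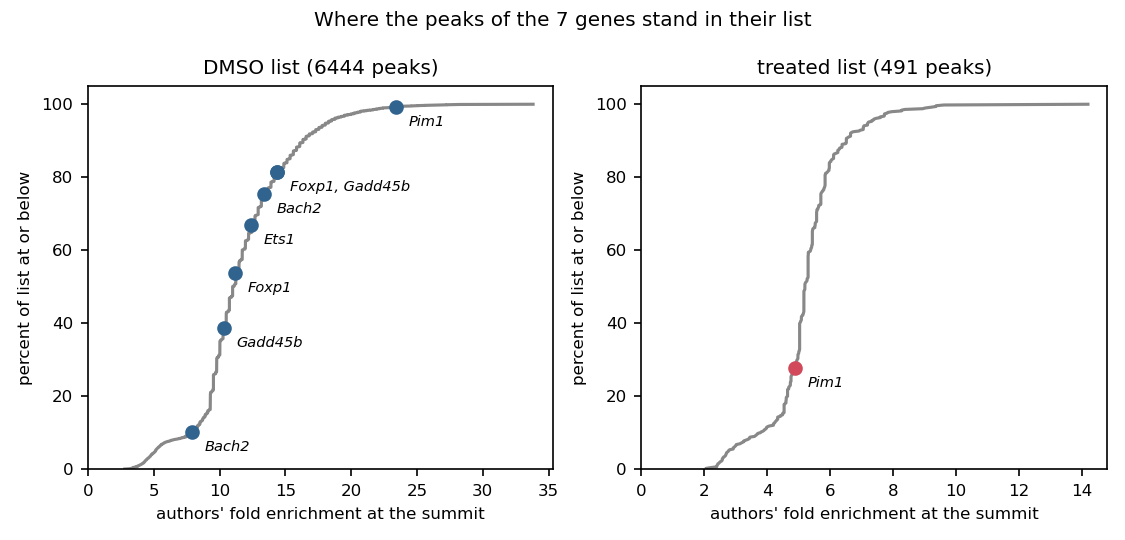
Percent of the list at or below a given fold (y axis) against the authors' fold enrichment at the summit (x axis), for the DMSO list (left) and the treated list (right). The grey line is every peak of the list and points are peaks of the 7 genes, with Foxp1 and Gadd45b sharing a point at 14.4. Pim1 stands at 99.2% among DMSO peaks and at 27.7% among treated peaks.

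**Figure D4:**
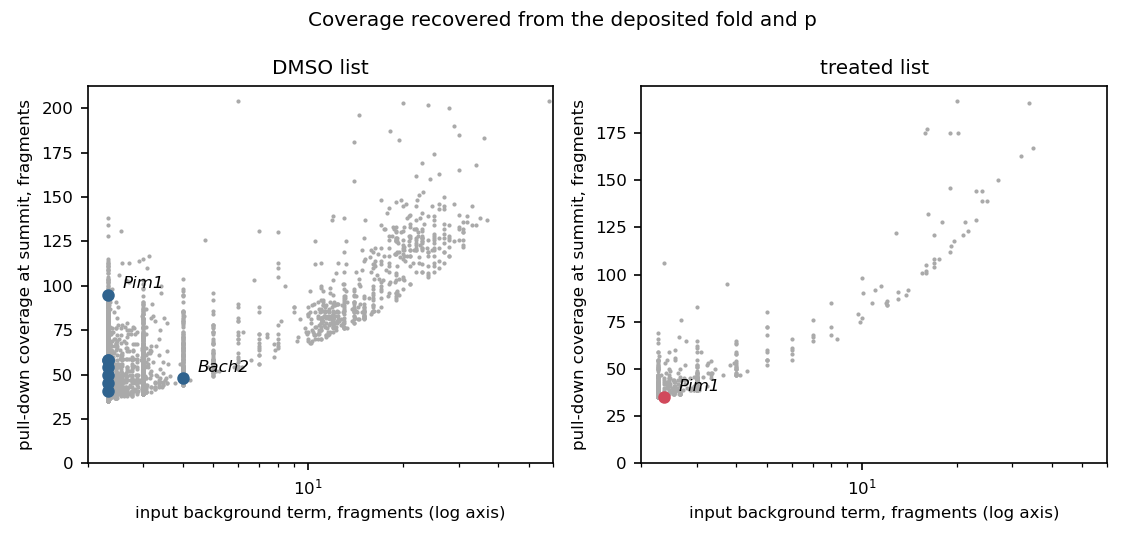
Pull-down coverage at the summit in fragments (y axis) against the input background term in fragments (x axis, log scale), recovered from the deposited fold and p. Pull-down fragments are before scaling to the input, so the axes are not on a common scale. Grey dots are all peaks of the list and coloured points those of the 7 genes. All DMSO peaks of the genes but the first of Bach2 (4.0) lie at 2.32 fragments of background, and the treated Pim1 peak lies at the foot of its list at 35 pull-down fragments.

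Of the 8 DMSO summits, 3 (37.5%) lay within 1 kb of an end of their own gene, at Pim1, Foxp1 and Gadd45b. Over the whole DMSO list, 57.2% of summits were as close to some protein-coding gene's end. With the inner start of Foxp1 counted, 4 of the 8 were within 1 kb of a listed start of their gene, and 52.9% of the whole list was within 1 kb of a listed start of a protein-coding gene. The remaining 4 were both Bach2 summits, the Ets1 summit and the second of Gadd45b. Ets1 has no listed start, so its summit could not be counted, and the only listed Bach2 start lies far inside the gene.

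The surroundings of the genes differed widely. Within 1 Mb Gadd45b had 106 other protein-coding genes, more than or as many as 98.9% of genes, and 58 DMSO summits. Pim1 had 32 other genes and 13 DMSO summits, Swap70 had 23 and 7, and Bach2 had 14 and 6. The genes with the fewest neighbours were Ikzf1 with 8 other genes and 0 summits, Foxp1 with 6 and 4, and Ets1 with 5 and 1. The medians over all protein-coding genes were 29 other genes and 6 DMSO summits. So 5 of the 7 lay in stretches with fewer genes than the median, and Ets1's only DMSO summit within 1 Mb was its own. Treated summits within 1 Mb numbered 3 at Pim1, 1 at Bach2, 1 at Gadd45b and 0 at the other 4. The median over all protein-coding genes was 0.

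**Figure D5:**
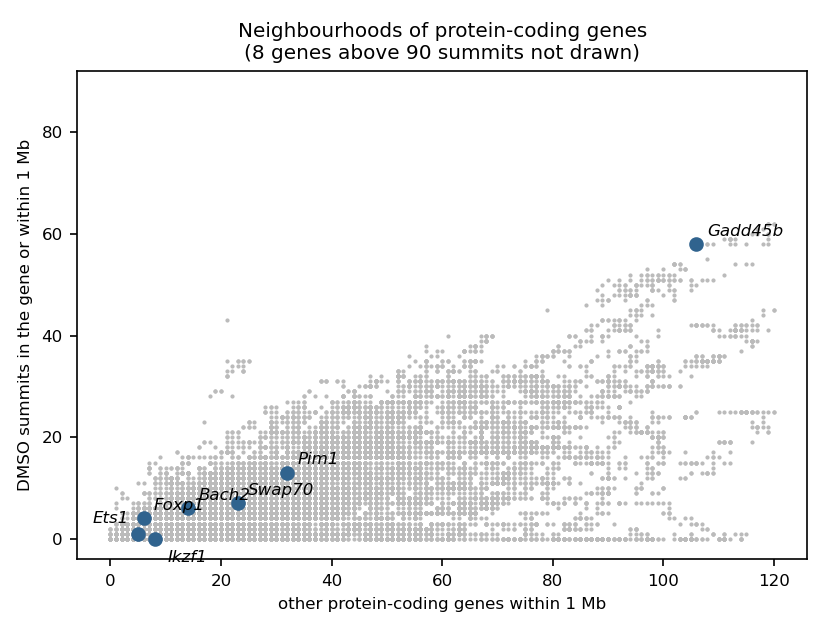
DMSO summits in a gene or within 1 Mb (y axis) against other protein-coding genes within 1 Mb (x axis). Grey dots are protein-coding genes, without 8 that exceed 90 summits, and blue points are the 7 genes. Gadd45b stands apart at 106 genes and 58 summits, and Ikzf1 lies at 0 summits.

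Of 15 close relatives of the 7 genes, 7 (46.7%) had a DMSO summit in the body or within 10 kb and 0 had a treated one. The shares over all protein-coding genes were 29.9% and 1.78%. The relatives with a DMSO summit are named with their highest fold. They were Pim3 (highest fold 16.8), Foxp4 (15.6), Def6, the relative of Swap70 (12.9), Gadd45a (11.9), Gadd45g (11.2), Bach1 (9.53) and Ikzf4 (8.80). All 3 Gadd45 genes thus had one, and so did relatives of Ikzf1 and of Swap70. Ets2, Fli1, Pim2, Foxp2, Foxp3, Ikzf2, Ikzf3 and Ikzf5 had none.

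Of 20 other genes of early replicating fragile sites or of recurrent breaks in B cell lymphoma, 4 had a DMSO summit. They were Ccnd3, a D-type cyclin gene (highest fold 12.7), the antiproliferative genes Btg1 (12.7) and Btg2 (10.5), and Rel, an NF-κB subunit gene (12.4). Ccnd3 alone also had a treated summit (fold 4.60). At 4 of 20 this list lay below the 29.9% of all protein-coding genes, and the 7 genes lay above it. Of 27 long genes of common fragile sites, with a median length of 1485 kb, 7 (25.9%) had a DMSO summit and 1 a treated summit, and of 20 immediate early genes 19 and 2 did. These counts are descriptions, and the differences between the lists were not tested.

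By their counts in the 2 lists, the genes on other chromosomes most like Foxp1 were Nfatc3 and Rfx2, and those most like Bach2 were Prkag2 and Tsc22d1. Each had 2 DMSO summits, 0 treated summits and the same highest fold as its counterpart (14.4 and 13.4). Of the 1009 and 1005 genes with these counts, 16 and 8 shared the highest fold, so the likeness over 2 lists is loose.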

How the data were processed

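BrITL pull-downs were compared with inputs by the authors, and 1 peak list per condition was deposited. Per the submitters' processing notes the build was mm10. The same notes list MACS2 2.1.0 and STAR 2.5.2a, then Picard 1.141, bcl2fastq 2.17.1.14 and SAMtools 0.1.19, with neither role nor setting. Peak names state that all pull-downs were set against all inputs. Each deposited peak has a fold enrichment (a ratio), a −log10 p and a −log10 q from the authors' caller, and a score. The deposited score was the whole part of 10 times −log10 p in 100% of peaks. The criterion for listing a peak is unknown here. Folds were used only within a list.

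Gene positions came from a RefSeq table of GRCm38.p6 without exons (all 7 genes matched by symbol), and listed starts and upstream bases from RefSeq. Pull-down and input coverage at each summit were recovered by inverting the caller's fold (pileup plus 1 over background plus 1) and Poisson p. The tolerance was 0.02 from a whole number of fragments, and 100% of peaks were solved. In the fold, the pull-down pileup is scaled down to the input. Pull-down fragments are given here before that scaling and input backgrounds on the input's scale, so their ratio is not the fold. In a test on 300 simulated peaks for each list, coverage was recovered for 100%, correctly in 100%. The simulated coverage began above 35 fragments, and the simulated backgrounds were the genome value or whole numbers. Peaks such as the treated Pim1 peak therefore lay outside the test, and recovered backgrounds were not checked. The files hold no read totals. The genome background was 2.88 fragments in the DMSO and 5.14 in the treated pull-down.

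The 7 genes and the gene lists were chosen with earlier results of these data known. Genes named beside the 7 were the nearest neighbours of their summits, fixed lists of relatives and related loci, and, for genes with at least 2 DMSO summits, those with the same counts and nearest highest fold, ties going to the nearest length. The genes most like Gadd45b are not reported here. The comparison with fold ranges, the split of promoters by peak and the numbers in peak names were added after the data were seen. Scripts ran under Python 3.11.15 with pandas 2.3.3, SciPy 1.17.1, NumPy 2.4.6 and matplotlib 3.10.9.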

Additional observations from a re-analysis of the deposited data

How the results depend on the processing

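No paired analysis was possible because the deposited lists pool the samples of each condition, and for the same reason no sample could be left out. The 5 genes with a DMSO summit stayed 5 with flanks of 5, 20 or 50 kb and with overlap in place of summits. They also stayed 5 with only peaks at or above the list's median fold. Across these settings their DMSO summits ran from 6 to 11 in place of 8. A cut at the DMSO list's lowest −log10 q leaves out no DMSO peak, so it could not change these counts. With no flank, 3 genes had 5 DMSO summits, and 0 genes had a treated summit. The treated count was also 0 genes with 0 summits at the DMSO list's lowest −log10 q and with peaks below the list's median fold left out, so it rests on the weak Pim1 peak. Within 500 bp of an end lay 1 DMSO summit in place of 3. The median fold of 12.9 was 12.4 with no flank and 12.4 with flanks of 50 kb.

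The share of all genes with a DMSO summit, 29.9%, was 18.6% over all RefSeq genes, 13.2% with no flank, 35.0% with 20 kb, 30.8% with overlap and 18.7% for peaks at or above the median fold. The treated share of 1.78% was 1.18%, 0.758% and 2.34% under the first 3 of these, 0.0137% at the DMSO list's lowest −log10 q and 0.955% at or above the median fold.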
